A study of Mus musculus with 48 samples.

Results

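The genes of de novo lipogenesis and their regulators were followed in the livers of mice given dichloroacetic acid (DCA). The 10 genes were taken by symbol: Acly, Acss2, Acaca, Acacb, Fasn and Me1 encode enzymes of the pathway, Srebf1 and Mlxipl encode its transcription factors, and Thrsp and Pnpla3 are lipogenic genes that follow them. All 10 had a row among the 11275 genes of the frozen (FROZ) table. In the formalin-fixed paraffin-embedded (FFPE) table of 6673 genes, 8 of them had a row, and Thrsp and Pnpla3 did not. TempO-Seq, a targeted assay in which pairs of detector oligos anneal to a transcript, are ligated and are then sequenced, was run on 48 libraries from 24 male B6C3F1 mice, a hybrid of C57BL/6 and C3H, which were 4 weeks old. Mice drank water with 0, 1, 2 or 3.5 g/L of DCA for 6 days, an intake of 0 (vehicle control), 198, 313 or 427 mg/kg-d, with 6 mice at each dose. Each mouse gave 1 FROZ and 1 FFPE library. All mice were of 1 sex and 1 strain. FROZ libraries were made from isolated RNA whereas FFPE libraries were made from tissue lysate, so FFPE and FROZ also differ in preparation. By the study, FROZ and FFPE pieces also came from partly different liver lobes, and both had been stored for decades.

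Fatty acids are built in the cytosol from acetyl-CoA, which ATP citrate lyase cuts from citrate that leaves the mitochondrion. Acetyl-CoA carboxylase turns it into malonyl-CoA, and fatty acid synthase extends malonyl-CoA into palmitate at the cost of NADPH. In liver the genes of this pathway are driven by insulin through SREBP-1, the product of Srebf1, and by glucose through ChREBP, the product of Mlxipl, while the nuclear receptor LXR drives Srebf1 itself. DCA is known as an inhibitor of pyruvate dehydrogenase kinase and thereby promotes the conversion of pyruvate to acetyl-CoA.

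Positions are from the RefSeq annotation of GRCm38.p6. Fasn (chromosome 11, 120805958 to 120825166, minus strand), Acaca (chromosome 11, 84129635 to 84401651, plus), Acly (chromosome 11, 100476352 to 100528000, minus) and Srebf1 (chromosome 11, 60199084 to 60224186, minus) share a chromosome. Acacb (chromosome 5, 114146321 to 114250761, plus) and Mlxipl (chromosome 5, 135089890 to 135139768, plus) share another. Me1 lies on chromosome 9 (86581363 to 86695914, minus), Acss2 on chromosome 2 (155518043 to 155562743, plus), Thrsp on chromosome 7 (97412933 to 97417550, minus) and Pnpla3 on chromosome 15 (84167776 to 84189521, plus).

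Both transcription factors bind short promoter elements: SREBP-1 binds the sterol response element, often beside a CCAAT box, and ChREBP binds pairs of E-boxes. The RefSeq promoter table (GRCm38.p6) held 14 start sites for the 10 genes. In the 250 bases before each start site, the letters ATTGG, the reverse of the CCAAT box, were searched on either strand. They were found in 9 of the 14 windows, against 33.8% of all 32851 windows in the table. These 9 windows belonged to 8 of the 10 genes, and some genes had more than 1 window. The E-box CACGTG was found in 1 member window (6.02% of all windows), the sterol response element TCACNCCAC in 1 (1.05%) and the TATA box TATAAA in 1, that of Acacb (12.4%). Each search covered both strands, and these letters define the motifs more narrowly than the factors do. The last 150 bases before the start site are shown for Fasn and for the 3 windows of the regulators in which a motif lay in that stretch, because Fasn encodes the synthase itself and both transcription factors are among the members. Capitals mark a CCAAT box in either direction, a sterol response element or an E-box, and the marked CCAATTGG of Fasn holds 2 overlapping boxes.
Fasn, chr11:120824548-120824697, minus strand: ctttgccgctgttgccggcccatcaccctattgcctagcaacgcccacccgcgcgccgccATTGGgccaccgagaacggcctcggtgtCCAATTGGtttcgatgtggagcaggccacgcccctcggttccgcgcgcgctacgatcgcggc
Srebf1, chr11:60210472-60210621, minus strand: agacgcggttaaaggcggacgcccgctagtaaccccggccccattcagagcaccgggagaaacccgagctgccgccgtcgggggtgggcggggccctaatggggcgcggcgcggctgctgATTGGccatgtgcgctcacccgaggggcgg
Mlxipl, chr5:135106741-135106890, plus strand: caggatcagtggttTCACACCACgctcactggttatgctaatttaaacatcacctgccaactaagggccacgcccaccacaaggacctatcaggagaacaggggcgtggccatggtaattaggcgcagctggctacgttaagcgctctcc
Mlxipl, chr5:135089740-135089889, plus strand: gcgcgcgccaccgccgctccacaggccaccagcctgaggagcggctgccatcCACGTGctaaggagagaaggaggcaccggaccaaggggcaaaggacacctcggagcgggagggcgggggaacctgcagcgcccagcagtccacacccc
Counted in bases from the start site, the boxes of Fasn lay at -90, -62 and -59 and that of Srebf1 at -30. Mlxipl, which did not pass the test at any dose in either table, carried the only match to the sterol response element and the only match to the E-box among the 14 windows. None of the 4 stretches overlapped an annotated exon of its gene. Those of Fasn and Srebf1 and the Mlxipl stretch with the sterol response element lay within the span of their gene, before an internal start site. The Mlxipl stretch with the E-box lay outside it. Which start sites were in use in these livers was not tested. In windows of 150 bases the CCAAT box was found in 6 of the 14 member windows and in 24.5% of all windows. The E-box was found in 1 member window and 4.3% of all, and the sterol response element in 1 and 0.639%.

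Values are CPM, counts scaled to a common library total, set to log2 with an offset of 1 CPM. A gene passed when its false discovery rate (FDR) over all genes of a table was below 0.05 by limma, and a gene that passed with a fold change above 2 was called a DEG. Changes are log2 changes against vehicle on the log2(CPM + 1) scale, with the standard error (SE), and are understated for genes near 1 CPM. As read from the steps of the low values, libraries held 6.69 to 9.84 M reads in FROZ and 1.83 to 6.01 M reads in FFPE, with the lowest FFPE median, 2.80 M reads, in the 198 mg/kg-d group. That median is approximate, since in animal 51, one of the libraries that set it, 46.3% of the low values lay on a step. The liver label was borne out by 8 of 8 hepatocyte markers in FROZ, whose summed level was at least 18513 CPM in every library. Levels of different genes are not compared, since probes were attenuated for some of them, Fasn included. In whole liver, fewer cells of a type and less RNA per cell cannot be told apart.

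Fasn, which encodes fatty acid synthase, had higher levels in FROZ liver at the 2 higher doses. The lowest, median and highest libraries were at 32.3, 44.4 and 55.5 CPM in vehicle, at 26.1, 32.8 and 55.3 CPM at 198 mg/kg-d, at 71.4, 76.3 and 128 CPM at 313 mg/kg-d and at 74.8, 119 and 166 CPM at 427 mg/kg-d. All libraries at 313 and 427 mg/kg-d lay above every vehicle library, which held for 9.14% and 11.4% of all genes. The log2 change was -0.26 (SE 0.19, FDR 0.50) at the lowest dose. At 313 mg/kg-d it was 0.95 with an FDR of 4.8e-04, and at 427 mg/kg-d it was 1.46 with an FDR of 1.3e-06, or 2.74-fold. At 313 mg/kg-d 1 library, that of animal 76, stood at 128 CPM while the other 5 lay between 71.4 and 81.6 CPM. Without it the change at that dose was 0.82.

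Both carboxylase genes also passed at the 2 higher doses. Acaca, which encodes the cytosolic acetyl-CoA carboxylase, was at 153, 176 and 263 CPM (lowest, median, highest) in vehicle and at 132, 187 and 220 CPM at 198 mg/kg-d. It reached 279, 295 and 442 CPM at 313 mg/kg-d and 345, 396 and 437 CPM at 427 mg/kg-d, so neither of the higher dose groups overlapped vehicle (9.14% and 11.4% of all genes lay wholly above it). Its change was -0.05, 0.74 (FDR 1.0e-04) and 1.04 (SE 0.13, FDR 5.2e-07) at the 3 doses. Acacb, whose product sits at the mitochondrial outer membrane and whose malonyl-CoA restrains fatty acid entry, was measured at the low level of 1.28, 1.59 and 3.52 CPM in vehicle and 2.86, 3.24 and 4.98 CPM at 427 mg/kg-d. The groups overlapped, with 1 of 6 libraries above all vehicle libraries. Acacb passed at 313 mg/kg-d (0.53, FDR 0.037) and 427 mg/kg-d (0.58, FDR 0.019). With an offset of 0.0001 CPM the values were 0.77 and 0.84, beside 0.74 and 1.05 for Acaca, and the changes of the 2 genes were not tested against each other. Under median ratio scaling they were 0.43 (FDR 0.11) and 0.48 (FDR 0.068), and both calls were also lost by the exact rank sum test (FDR 0.28 and 0.26). The call at 313 mg/kg-d was lost in the fit of 2 groups (FDR 0.063) and without any 1 of vehicle animals 3, 5, 6 and 8 or animals 75, 76 and 77 (0.44 to 0.54), and that at 427 mg/kg-d without vehicle animal 6 (0.51) or animal 97 (0.50).

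Me1, which encodes the cytosolic malic enzyme that yields NADPH, passed at both higher doses in FROZ. Its libraries were at 305, 340 and 504 CPM in vehicle, 304, 399 and 540.3 CPM at 198 mg/kg-d, 655, 1266 and 2014 CPM at 313 mg/kg-d and 1202, 1511 and 1975 CPM at 427 mg/kg-d. The 198 mg/kg-d group lay over the vehicle range. The higher groups lay wholly above it, which held for 9.14% and 11.4% of all genes. The change was 0.12 (SE 0.19), 1.71 (FDR 2.5e-07) and 2.08 (FDR 3.5e-09), the last being 4.24-fold. Its change was the largest of the 10 genes at 427 mg/kg-d on this scale, but with an offset of 0.1 CPM Srebf1 was at 2.13 and Me1 at 2.09.

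The suppliers of acetyl-CoA did not pass the test at any dose. Acly, which encodes ATP citrate lyase, was at 169, 272 and 393 CPM in vehicle, 206, 245 and 278 CPM at 198 mg/kg-d, 196, 246 and 422 CPM at 313 mg/kg-d and 145, 226 and 265 CPM at 427 mg/kg-d. All 4 groups overlapped, and at 427 mg/kg-d the change was -0.34 with a 95% interval of -0.73 to 0.05 and an FDR of 0.19. Acss2, which encodes the cytosolic enzyme that makes acetyl-CoA from acetate, was at 2.88, 7.13 and 10.9 CPM in vehicle and 4.60, 6.74 and 8.25 CPM at 427 mg/kg-d. Its changes were 0.14, 0.33 and 0.01, with an interval of -0.45 to 0.46 at 427 mg/kg-d. The intervals at 427 mg/kg-d did not reach the changes of Fasn or Me1.

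Of the 2 transcription factors Srebf1 passed in FROZ and Mlxipl did not. Srebf1 was at 0.664, 2.95 and 4.81 CPM in vehicle, 2.24, 3.95 and 7.63 CPM at 198 mg/kg-d, 3.40, 5.03 and 7.29 CPM at 313 mg/kg-d and 7.24, 10.7 and 16.1 CPM at 427 mg/kg-d. The groups overlapped up to 313 mg/kg-d, and at 427 mg/kg-d all 6 libraries lay above vehicle, which held for 11.4% of all genes. The change was 0.50 (SE 0.27, FDR 0.35), 0.82 (FDR 0.025) and 1.73 (FDR 1.9e-05, 3.32-fold). The call at 313 mg/kg-d was lost under median ratio scaling (0.72, FDR 0.054), by the exact rank sum test (FDR 0.22) and without any 1 of vehicle animals 4, 6 and 8 or animals 73 and 78 (0.61 to 0.75). Mlxipl was at 18.6, 30.4 and 45.8 CPM in vehicle, 24.3, 29.4 and 49.7 CPM at 198 mg/kg-d, 18.8, 24.4 and 36.6 CPM at 313 mg/kg-d and 24.8, 31.9 and 37.7 CPM at 427 mg/kg-d. All 4 Mlxipl groups overlapped, and its change was 0.05, -0.24 and 0.11, with an interval of -0.27 to 0.49 at 427 mg/kg-d. The difference between the changes of the 2 genes was not tested.

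Pnpla3, which encodes a lipid droplet protein and is a known SREBP-1 target, was at 0.443, 1.08 and 3.66 CPM in vehicle and 0.382, 1.61 and 6.65 CPM at 198 mg/kg-d. It was at 1.64, 3.42 and 8.26 CPM at 313 mg/kg-d and 2.49, 3.48 and 7.73 CPM at 427 mg/kg-d, with 3 of 6 libraries above all vehicle libraries in each of these groups. The change was 0.26 (SE 0.36), 0.97 (FDR 0.048) and 1.11 (FDR 0.021). The call at 313 mg/kg-d rested on an FDR just under the threshold and was lost when any of 13 of the 24 animals was left out, and that at 427 mg/kg-d was lost by the exact rank sum test (FDR 0.055) and without vehicle animal 8 (0.97) or animal 101 (0.95). Thrsp, whose product acts with that of Mid1ip1 on acetyl-CoA carboxylase, was at 0.554, 2.51 and 4.65 CPM in vehicle, 0.648, 1.52 and 2.16 CPM at 198 mg/kg-d, 0.612, 2.15 and 3.44 CPM at 313 mg/kg-d and 1.19, 4.32 and 8.73 CPM at 427 mg/kg-d. In the highest dose group 3 libraries stood above the vehicle range and the rest lay within it. Its change there was 0.62 (SE 0.31, FDR 0.14), and it passed only without animal 99 (0.86, FDR 0.032).

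**Figure D1:**
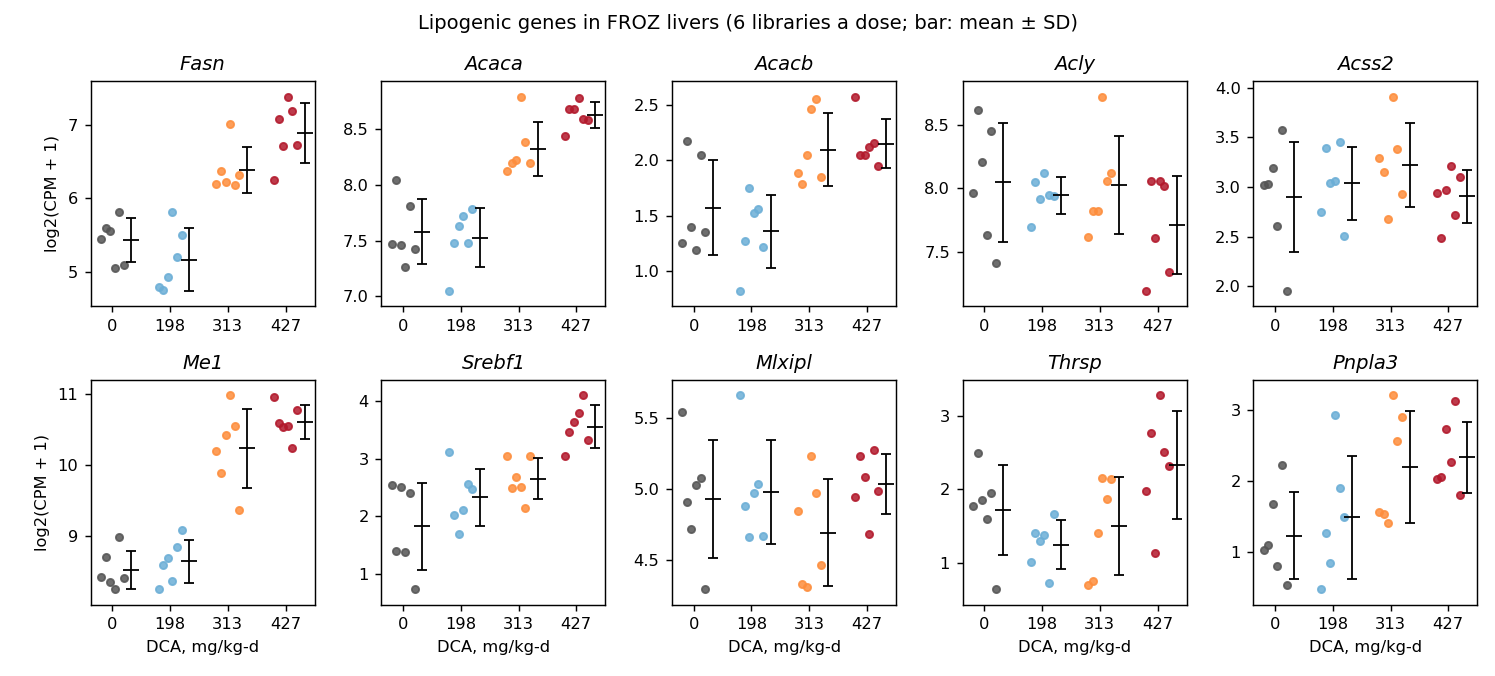
Levels of the 10 lipogenic genes in FROZ livers, as log2(CPM + 1) on axes scaled to each gene, against the DCA dose in mg/kg-d; points are the 6 libraries of a dose and bars the mean ± SD. Fasn, Acaca and Me1 lay wholly above vehicle at 313 and 427 mg/kg-d and Srebf1 at 427 mg/kg-d, whereas Acly, Acss2 and Mlxipl overlapped vehicle at every dose. Of all genes, 9.14% lay wholly above vehicle at 313 mg/kg-d and 11.4% at 427 mg/kg-d.

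By count, 0, 6 and 6 of the 10 genes rose in FROZ at 198, 313 and 427 mg/kg-d and none fell, where 1.12%, 20.5% and 22.7% of all genes were called higher and 7.33% were called lower at the highest dose. The 6 were Fasn, Acaca, Acacb, Me1, Srebf1 and Pnpla3 at both doses. As DEGs, 0, 1 (Me1) and 5 were called higher (Acacb was not), against 0.0443%, 1.43% and 2.26% of all genes. The median change of the 10 genes was 0.00, 0.64 and 0.83 beside 0.07, 0.11 and 0.10 over all genes. Median ratio scaling, which brings the median of all genes to 0.00 at 198 and 313 mg/kg-d and to -0.01 at 427 mg/kg-d, left 3 of the 10 genes (Fasn, Acaca and Me1) higher at 313 mg/kg-d and 5 at 427 mg/kg-d, with 10.3% and 12.6% of all genes higher and 10.8% and 12.6% lower. Leaving out vehicle animal 6 or vehicle animal 8 also left 3 at 313 mg/kg-d.

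Between neighbouring doses, 4 genes passed in the step from 198 to 313 mg/kg-d. They were Fasn (1.21), Acaca (0.80), Acacb (0.74) and Me1 (1.59), with FDRs from 3.0e-06 to 0.0097, and 8.05% of all genes were called higher. From 313 to 427 mg/kg-d no member passed at an FDR of 0.05 (limma), with 1.73% of all genes called higher. At an unadjusted p below 0.05 (limma) there were 4 members, beside 1975 of the 11275 genes in either direction. The 4 were Fasn (0.51, interval 0.12 to 0.89), Acaca (0.30, interval 0.040 to 0.57), Srebf1 (0.91, FDR 0.067) and Thrsp (0.83). The sizes of the steps were not tested against each other. Across all doses the slope per 100 mg/kg-d was 0.53 for Me1, 0.38 for Srebf1, 0.37 for Fasn, 0.28 for Pnpla3, 0.26 for Acaca and 0.16 for Acacb, and these 6 passed where 24.4% of all genes rose with dose.

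In FFPE liver 2 of the 8 genes with a row passed, and both were genes that rose in FROZ. FFPE and FROZ tables were scaled separately, so levels are not compared between them. Me1 was at 51.1, 97.6 and 168 CPM in vehicle, 74.6, 104 and 208 CPM at 198 mg/kg-d, 87.7, 347 and 534 CPM at 313 mg/kg-d and 306, 389 and 460 CPM at 427 mg/kg-d. Above every vehicle library lay 5 of 6 libraries at 313 mg/kg-d and all 6 at 427 mg/kg-d. Its change was 0.34 (SE 0.36), 1.59 (FDR 0.017) and 2.02 (FDR 6.3e-04). The call at 313 mg/kg-d was lost without any 1 of vehicle animals 5, 6 and 8 or animals 75, 76 and 77, where the change ranged from 1.40 to 1.92 over all animals left out. Fasn was at 71.3, 120 and 159 CPM in vehicle, 35.1, 108 and 210 CPM at 198 mg/kg-d, 179, 223 and 296 CPM at 313 mg/kg-d and 195, 276 and 508 CPM at 427 mg/kg-d. Neither of its higher dose groups overlapped vehicle, which held for 0.959% and 2.94% of all FFPE genes. Its change was -0.21 (SE 0.31), 0.96 (FDR 0.17) and 1.37 (FDR 0.010).

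Of the 8 genes, 0, 1 and 2 rose in FFPE at the 3 doses, where 0.03%, 0.764% and 1.54% of all FFPE genes were called higher. The median change of the 8 genes was -1.40, 0.20 and 0.89 at the 3 doses, beside -0.19, -0.12 and 0.18 over all FFPE genes. At 198 mg/kg-d 7 of the 8 genes had a negative change, and 0 passed. The genes that rose at a dose were all DEGs, against 0.03%, 0.584% and 1.23% of all genes, and the 2 genes also rose with dose, against 1.51%.

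None of the other 6 genes passed in FFPE, and 5 of them, all but Mlxipl, had libraries listed at 0. Acaca was at 47.9, 42.2, 34.5, 24.5, 35.2 and 29.1 CPM in the 6 vehicle libraries and at 53.0, 69.3, 65.9, 42.5, 27.9 and 79.0 CPM at 427 mg/kg-d, but 2 of the libraries at 198 mg/kg-d were listed at 0. Its change at 427 mg/kg-d was 0.60 with an interval of -1.13 to 2.34. Acacb was listed at 0 in 4 libraries at 198 mg/kg-d and in 2 at 313 mg/kg-d, Acss2 in 3, 2 and 2 libraries of the 3 dosed groups, Srebf1 in 2 and Acly in 1 at 198 mg/kg-d. In the highest dose group Srebf1 was between 35.9 and 85.3 CPM against 8.31 to 50.9 CPM in vehicle, and Acacb was between 13.7 and 25.9 CPM against 0.219 to 23.2 CPM. Their changes were 1.27 (SE 0.81, FDR 0.83) and 1.18 (SE 0.96, FDR 0.97). Mlxipl was detected in every FFPE library, at 352, 430 and 607 CPM in vehicle and 351, 439 and 724 CPM at 427 mg/kg-d, with a change of 0.01 (interval -0.49 to 0.51). FFPE libraries at 198 mg/kg-d had the lowest depth and the most zeros, a median of 983 genes listed at 0 against 281.5 in vehicle. The part of depth in the low values of the lipogenic genes at that dose was not tested.

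**Figure D2:**
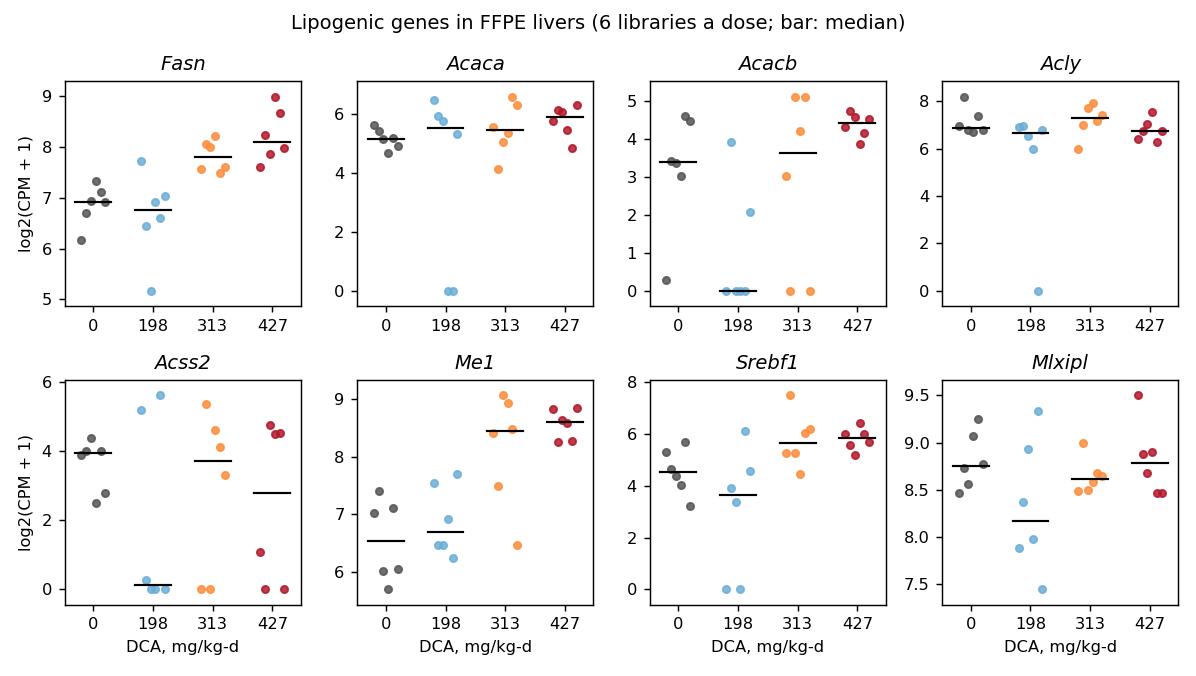
Levels of the 8 lipogenic genes with a row in FFPE livers, as log2(CPM + 1) on axes scaled to each gene, against the DCA dose in mg/kg-d; points are the 6 libraries of a dose and bars their median. Fasn at 313 and 427 mg/kg-d and Me1 at 427 mg/kg-d lay wholly above vehicle, as did 0.959% and 2.94% of all FFPE genes at these doses. The points at 0 for Acaca, Acacb, Acly, Acss2 and Srebf1 are libraries in which the gene was listed at 0.

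Whether FFPE tissue gave the same response as the frozen liver of the same animals was tested by subtracting the FROZ value of an animal from its FFPE value. For Fasn the response differed by 0.01 (interval -0.68 to 0.70) at 313 mg/kg-d and by -0.09 (interval -0.78 to 0.60) at 427 mg/kg-d. For Me1 the differences were -0.12 (interval -0.85 to 0.60) and -0.07 (interval -0.79 to 0.66), and for Mlxipl 0.08 (interval -0.65 to 0.81) and -0.10 (interval -0.83 to 0.63). The intervals of these 3 genes left out a difference of 1, and those of the other 5 did not. No member passed at an FDR of 0.05 (limma) at any of the 3 doses, where 0.0303%, 0% and 0.0303% of the 6591 genes in both tables did. At an unadjusted p below 0.05 (limma) there were 2 members at 198 mg/kg-d, Srebf1 (-2.06, FDR 0.37) and Acacb (-1.98, FDR 0.41). Both had FFPE libraries listed at 0. There were 0 members at 313 and 427 mg/kg-d. Of the 6591 genes, 750, 487 and 146 had such a p at 198, 313 and 427 mg/kg-d.

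**Figure D3:**
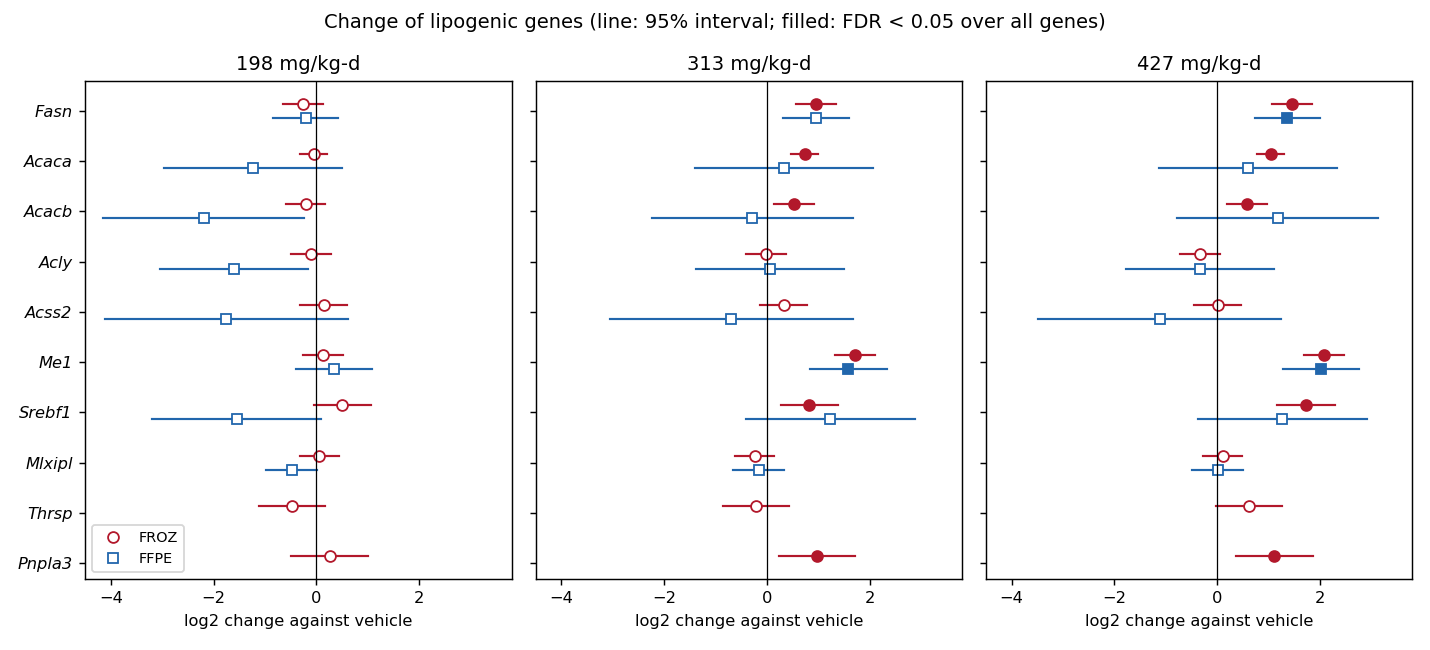
Log2 change against vehicle of each lipogenic gene at 198, 313 and 427 mg/kg-d in FROZ (red circles) and FFPE (blue squares); lines are 95% intervals and filled symbols have an FDR below 0.05 over all genes. Fasn, Me1, Mlxipl and Acly had FFPE changes close to those in FROZ at 313 and 427 mg/kg-d. For Acly this holds for the estimates only, since the interval of the difference was -1.57 to 1.74 and -1.65 to 1.65. For Fasn at 427 mg/kg-d the change was 1.46 in FROZ and 1.37 in FFPE. FFPE intervals were wider than those in FROZ for every gene with a row in both.

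Genes around the pathway were described by lists in FROZ at 427 mg/kg-d, where 22.7% of all genes rose and 7.33% fell. Of 10 genes that supply NADPH and citrate or aid the carboxylase, 6 rose and none fell (4 rose and 1 fell under median ratio scaling), and 1 was a DEG: Mid1ip1, whose product promotes polymers of acetyl-CoA carboxylase, at 1.16 (from 124 to 215 CPM in vehicle to 306 to 519 CPM). G6pdx, the entry enzyme of the pentose phosphate pathway, rose by 0.91 and Idh1 by 0.62. Of 12 genes of elongation and desaturation, 4 rose and 1 fell. Scd1, the main desaturase of liver, rose by 3.28 (median 66.0 CPM in vehicle, 721 CPM at 427 mg/kg-d), Elovl6, which extends palmitate, by 2.23 and Elovl5 by 1.21, while Elovl3, another elongase, fell by 2.75 (median 5043 to 734 CPM). All libraries at 427 mg/kg-d lay above the vehicle range for Scd1, Elovl6 and Elovl5 and below it for Elovl3. Of all 11275 genes, 1289 lay wholly above vehicle at this dose and 369 wholly below.

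Of 10 measured genes of triglyceride synthesis, 6 rose and 1 fell (4 and 2 under median ratio scaling). Gpam, which starts glycerolipid synthesis, rose by 1.34. The lipins, phosphatidate phosphatases, moved apart: Lpin2 rose by 1.71 and Lpin1 fell by 2.63. Lpin1 was already lower at 198 mg/kg-d, at a median of 76.3 CPM against 411 CPM in vehicle, a change of -2.53 (FDR 6.9e-09) at a dose where none of the 10 lipogenic genes passed.

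Of 6 genes, Srebf2 and those that process SREBPs or control that processing, 2 rose, Insig2 by 0.49 and Mbtps2 by 0.25, and none was a DEG. Under median ratio scaling 0 passed. Insig1, a classical SREBP target, had a change of 0.08 (SE 0.19). Srebf2 had a change of -0.12 (SE 0.14). Its median was only 0.352 CPM in vehicle and 0.172 CPM at 427 mg/kg-d. With 1 read worth up to 0.150 CPM in FROZ, the change of Srebf2 could not be resolved. Of 14 genes of sterol synthesis and uptake, which follow SREBP-2, 2 rose and 6 fell (1 and 8 under median ratio scaling), the only DEG being Mvk, which fell by 1.07, from a median of 22.0 CPM to one of 9.68 CPM. The median change was -0.45 for the sterol list and 0.83 for the 10 lipogenic genes, beside 0.10 for all genes.

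Of 9 partners and targets of ChREBP, 6 rose and none fell, under either scaling. The DEGs were Txnip (1.25), which had a median of 21.0 CPM in vehicle, 20.8 CPM at 313 mg/kg-d and 50.2 CPM at 427 mg/kg-d, Tkfc (1.23), a kinase of fructose breakdown, and Gpd1 (1.01), which makes glycerol 3-phosphate. Pklr, a known target of ChREBP, had a change of 0.24 (SE 0.25) and did not pass. Of 9 genes of LXR and its targets, 4 rose and none fell under either scaling. Lpcat3, a phospholipid remodelling enzyme (1.34), and Abcg5, a sterol exporter (1.05), were DEGs, and the receptor gene Nr1h3 had a change of 0.07 (SE 0.12). Of 9 genes that control acetyl-CoA carboxylase, 4 rose and none fell. They included Prkaa2, a catalytic subunit of the AMP-activated kinase that inhibits the carboxylases (0.81), and Mlycd, whose product degrades malonyl-CoA (0.95).

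Of 15 genes of fatty acid oxidation, 14 rose and none fell (13 and 0 under median ratio scaling), and 10 were DEGs. The largest changes were those of Cyp4a14 (8.70), Cyp4a10 (7.09), Ehhadh (4.75) and Acaa1b (2.97), genes of microsomal and peroxisomal oxidation known as PPARα targets. Cyp4a14 had a median of 0.475 CPM in vehicle, 2.09 CPM at 198 mg/kg-d, 504 CPM at 313 mg/kg-d and 714 CPM at 427 mg/kg-d. The list median was 1.41 at 427 mg/kg-d. In FFPE at this dose, 3 of 11 measured genes of elongation and desaturation rose, among them Scd1 (3.01) and Elovl6 (1.92), and Elovl3 fell by 2.68. Of 14 oxidation genes 7 rose and none fell, and Lpin1 fell by 2.46. Among all 6673 FFPE genes, 1.54% were called higher at this dose and 58 genes were called lower.

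**Figure D4:**
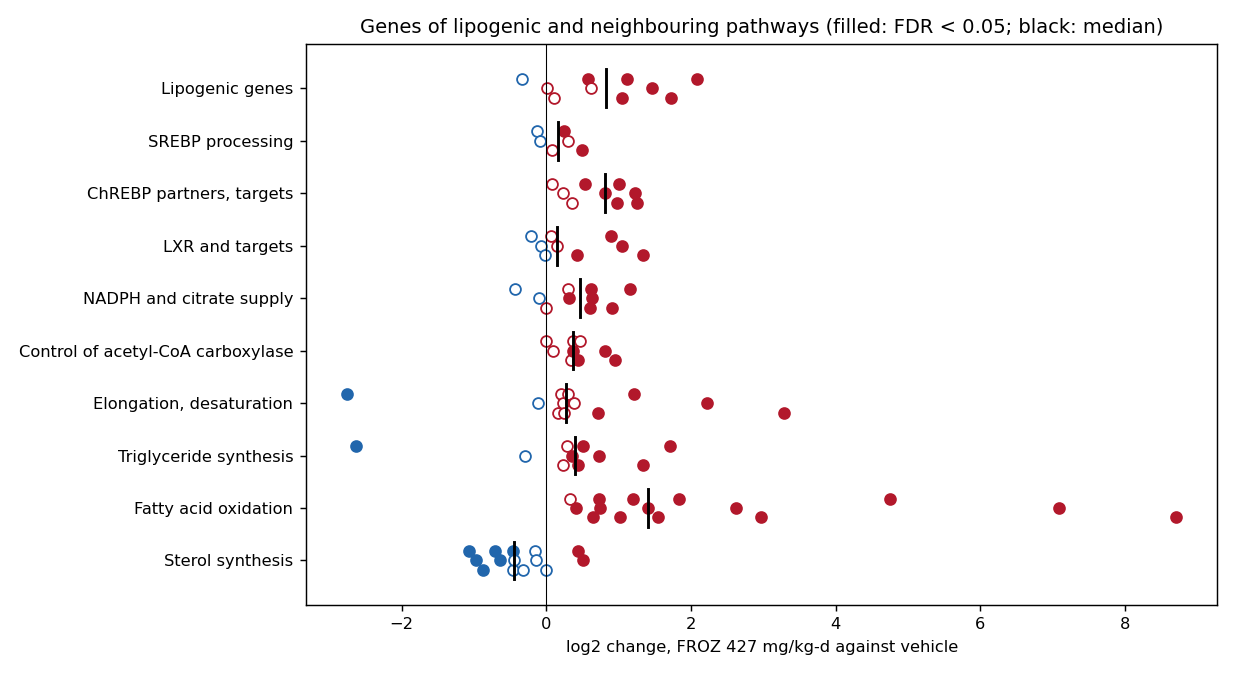
Log2 change against vehicle in FROZ at 427 mg/kg-d for each gene of the 10 lipogenic genes and of 9 neighbouring lists; filled points have an FDR below 0.05 over all genes and black bars are list medians. The medians ran from -0.45 for sterol synthesis to 1.41 for fatty acid oxidation, and the lipogenic genes had a median of 0.83.

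Markers of other cell types were set beside these changes. Of 8 adipocyte markers 2 had a row in FROZ, Lipe, which rose by 0.88 at 427 mg/kg-d, and Adrb3 (0.42, FDR 0.11); Adipoq, Plin1, Lep, Retn, Cfd and Cidec had none. The summed level of these 2 was 2.10 to 7.21 CPM in vehicle and 4.53 to 8.33 CPM at 427 mg/kg-d, ranges that overlap. Of 6 Kupffer cell markers 3 fell (summed level 76.3 to 115 CPM in vehicle and 64.0 to 82.8 CPM at 427 mg/kg-d), and of 9 endothelial and stellate markers 2 fell (317 to 591 and 260 to 420 CPM). None of 3 cholangiocyte markers passed (32.9 to 45.0 and 29.9 to 46.9 CPM), and of 8 hepatocyte markers 1 rose and 1 fell (22087 to 27892 and 19401 to 23620 CPM). Under median ratio scaling 3 hepatocyte, 3 Kupffer, 4 endothelial and stellate and 1 cholangiocyte marker fell, and of these lists none had a marker that rose. In FFPE at 427 mg/kg-d, 1 of 7 hepatocyte markers fell and 0 rose, where 58 of 6673 genes were called lower. Their summed level was 38608 to 51208 CPM in vehicle and 27125 to 32012 CPM at 427 mg/kg-d, ranges that do not overlap. None of the 3 Kupffer, 7 endothelial and stellate and 2 cholangiocyte markers with an FFPE row passed at this dose. The part of these cell types in the changes of the lipogenic genes was not tested in either table. As another limit on identity, 24.6% of the 50-base stretches of Me1 transcripts also occur in transcripts of Gm7049 and Gm7329 and 49.1% of those of Acaca in Gm5182, so reads of these genes could be shared if a probe lay there. The share was 4.51% for Pnpla3 (Gm49513) and 0.175% for Mlxipl (Hip1). For Fasn, Acacb, Acly, Acss2, Srebf1 and Thrsp it was 0%.

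Variation from liver to liver within a dose was also examined. After each dose mean was removed, the 45 pairs of members were correlated over the 24 FROZ libraries, with permutation within dose and adjustment over the 45 pairs; 41 pairs had a positive r, and 11 had an adjusted p below 0.05, all of them positive. By Spearman's rho 14 pairs did. Acly, which showed no change with dose that passed, was in 4 of these pairs. Its r with Fasn was 0.77 (rho 0.76), with a permutation p of 1e-05, the smallest that 100000 permutations can give, an adjusted p of 2.2e-04, and an r of 0.75 without the 2 libraries farthest from the median of Fasn. Acly was likewise related to Acaca (r 0.76, rho 0.77, adjusted p 2.2e-04 by permutation, r 0.63 without 2 libraries), to Thrsp (r 0.74, rho 0.83, adjusted p 0.0015 by permutation, r 0.66 without 2 libraries) and to Pnpla3 (r 0.64, rho 0.72, adjusted p 0.0030 by permutation, r 0.55 without 2 libraries).

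Fasn and Acaca had an r of 0.71 (rho 0.69, permutation p 8.0e-05, adjusted p 0.0012, r 0.63 without 2 libraries) and Acaca and Acacb one of 0.70 (rho 0.69, permutation p 0.0019, adjusted p 0.011, r 0.59 without 2 libraries). The others were Fasn with Pnpla3 (0.68) and Thrsp (0.53), Me1 with Acacb (0.63) and Acaca (0.57), and Acaca with Thrsp (0.54). No pair with Srebf1, Mlxipl or Acss2 was among the 11. Srebf1 had an r of 0.32 with Fasn and of -0.33 with Acacb, and its highest r was with Mlxipl, 0.45 (adjusted p 0.14 by permutation). As a measure of what libraries share in general, the r of Fasn with the other genes of the table had a median of 0.05 and a 95th percentile of 0.41, and that of Acly 0.02 and 0.41. Animal 76 was the highest of the 313 mg/kg-d group in 8 of the 10 genes (all but Acacb and Srebf1), and without it 8 pairs had an adjusted p below 0.05, the range over all animals left out being 8 to 13.

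**Figure D5:**
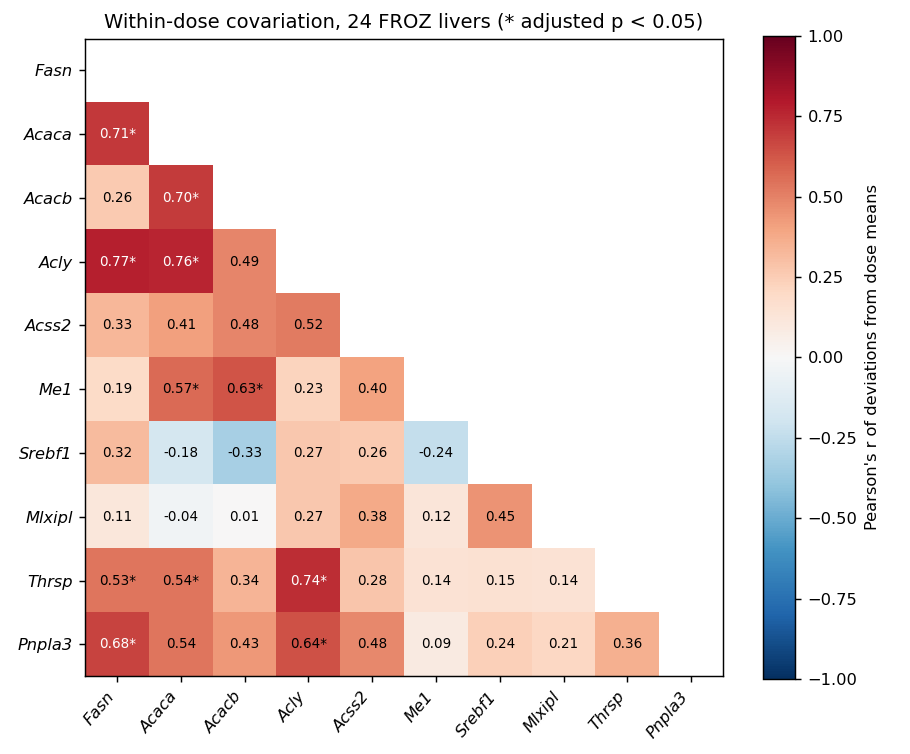
Pearson's r between each pair of lipogenic genes over 24 FROZ libraries after removal of the dose means; red is positive, blue negative, and asterisks mark the 11 pairs with an adjusted p below 0.05 by permutation within dose. The starred pairs join Fasn, Acaca, Acacb, Acly, Me1, Thrsp and Pnpla3, and none includes Srebf1, Mlxipl or Acss2.

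The level of a gene in the FROZ and the FFPE library of the same animal was compared in the same way. Of 8 genes, 1 had an adjusted p below 0.05: Me1, with an r of 0.68 (rho 0.54, adjusted p 0.023 for r and 0.12 for rho, by permutation) and an r of 0.49 without the 2 libraries farthest from its median. The call of Me1 was lost without animal 6, 54, 74, 76, 77 or 78. Fasn had an r of 0.39 (adjusted p 0.23 by permutation) and the other 6 genes lay between -0.16 and 0.34, beside a median of 0.09 over the 6591 genes in both tables.

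Over the 24 FROZ libraries with their doses, the genes most like Fasn by Pearson's r were Acaca (0.94), Mid1ip1 (0.94), Elovl6 (0.92), Prxl2a (0.90) and Eno1b (0.89), and those most like Pnpla3 were Nfia (0.79), Cbr4 (0.78), Sc5d (0.76), Cnksr3 (0.75) and Gcnt2 (0.75). These r hold the dose differences that the libraries share and are given as a description.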

How the data were processed

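TempO-Seq libraries of FROZ and FFPE liver were assigned to dose and preservation from the labels, and the 2 libraries of an animal were paired by animal number. By the submitters' processing notes the authors used STAR 2.6, Partek and the mm10 build, and they deposited log2 values, log2(CPM + 1), in a table for each preservation, after a filter on low counts and scaled separately. Raw counts were not analysed here, so no count model was used. CPM was recovered as 2 to the power of the value, less 1. The reads behind a library were read from the CPM of 1 read, the smallest value that many low genes share. The members, lists and tests were chosen with earlier results of these data known, and Fasn is on the study's list of attenuated probes.

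Each table was fitted over its 24 libraries with limma 3.58.1 (R 4.3.3, dose as group, variance prior with a trend on the mean), and FDR was by Benjamini-Hochberg over all genes. The FFPE response was compared with FROZ on the difference of each animal's 2 libraries, which keeps the animal as a replicate block. Over 4815 genes the deviations from dose means had a median r of 0.128 between the libraries of an animal and -0.0232 between animals of a dose, and 21 of 24 animals matched best with themselves. Nothing in the labels says whether mice shared a cage or batch.

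Members were correlated on deviations from dose means, two-sided, with 100000 permutations within dose (SciPy and NumPy). Named genes are all members, up to 4 DEGs of each list with the largest change in FROZ at 427 mg/kg-d, and the 5 genes most like Fasn and Pnpla3; other list genes were named after their values were seen. Promoter windows came from RefSeq (GRCm38.p6), exons and transcripts from GENCODE. Alternatives were offsets of 0.1 and 0.0001 CPM, a mean of at least 10 CPM, median ratio scaling, no trend in the prior, array quality weights, fits of 2 groups, an exact rank sum test and each animal left out. The scripts were tested on simulated data.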

Additional observations from a re-analysis of the deposited data

Results flagged for a closer look

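With 6 libraries in each group, 72 groups of members were examined for a library far from the other 5 by Dixon's ratio on log2(CPM + 1), and 5 were found; chance gives about 1 in 20 groups. In FROZ they were Fasn in animal 76 at 313 mg/kg-d (7.01, others 6.18 to 6.37), Acacb in animal 97 at 427 mg/kg-d (2.58, others 1.95 to 2.16) and Mlxipl in animal 49 at 198 mg/kg-d (5.66, others 4.66 to 5.03). In FFPE they were Acacb in vehicle animal 3 (0.285, others 3.01 to 4.60) and Acly in animal 53 at 198 mg/kg-d (listed at 0, others 5.97 to 6.94, or 61.8 to 122 CPM). Acly in the frozen liver of animal 53 was within the range of its group.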

How the results depend on the processing

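Of 146 comparisons of a count with its value under another setting, 130 were equal or close to it. Of 417 comparisons of a single gene, 396 kept the sign and the call, 7 turned sign and 14 lost the call. The 130 take in small shifts, such as 5 against 6 members passing in FROZ at 427 mg/kg-d under median ratio scaling. They also take in the loss of Acacb and Pnpla3 at that dose by the exact rank sum test. The larger exceptions among counts follow. In FROZ at 313 mg/kg-d, 3 members were DEGs with an offset of 0.1 or 0.0001 CPM, against 1. With a mean of at least 10 CPM, which removes 5 low members from the test, 3 passed at 313 mg/kg-d, 3 passed at 427 mg/kg-d (3 as DEGs) and 3 rose with dose. Median ratio scaling and the exact rank sum test each left 3 at 313 mg/kg-d. From 313 to 427 mg/kg-d, 1 passed with array quality weights and 1 with only the groups compared, against 0. In FFPE at 313 mg/kg-d, 0 passed and 0 were DEGs with a prior without trend, with only the groups compared or by the exact rank sum test. The causes were not tested.

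Signs turned only for changes that did not pass. With median ratio scaling Mlxipl was at -0.037 (FROZ, 198 mg/kg-d), -0.034 (FROZ, 427 mg/kg-d) and -0.10 (FFPE, 427 mg/kg-d) and Acss2 at -0.12 (FROZ, 427 mg/kg-d). With array quality weights these were -0.058 for Mlxipl (FROZ, 198 mg/kg-d), -0.028 (FFPE, 427 mg/kg-d) and -0.011 for Acss2 (FROZ, 427 mg/kg-d).

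With each animal left out, members passing in FROZ at 313 mg/kg-d ranged from 3 to 6, DEGs there from 1 to 3, members passing from 313 to 427 mg/kg-d from 0 to 1, members passing and DEGs in FFPE at 313 mg/kg-d each from 0 to 1, and members related between the libraries of an animal from 0 to 3. The changes that crossed 0 ranged, in FROZ at 198 mg/kg-d, from -0.12 to 0.040 (Acaca), -0.23 to 0.012 (Acly), -0.049 to 0.27 (Acss2), -0.086 to 0.17 (Mlxipl) and -0.031 to 0.46 (Pnpla3). They ranged from -0.16 to 0.10 for Acly at 313 mg/kg-d, and at 427 mg/kg-d from -0.18 to 0.14 (Acss2) and -0.021 to 0.23 (Mlxipl). In FFPE they ranged from -0.43 to 0.082 (Fasn, 198 mg/kg-d), -0.86 to 0.30 (Acacb, 313 mg/kg-d), -0.084 to 0.31 (Acly, 313 mg/kg-d) and -0.13 to 0.094 (Mlxipl, 427 mg/kg-d).

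Without the replicate block by animal, 0 members differed in response between FFPE and FROZ at each of the 3 doses, as with it. In FFPE at 198 mg/kg-d 1 read was worth up to 0.546 CPM, so lower levels could not be resolved there.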
